A study of Mus musculus with 39 samples.

Results

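The genes described here are Tcrg-C1, Tcrg-C2, Tcrg-C4 and Trdc, which encode constant regions of the gamma-delta T cell receptor in the mouse. They were taken by symbol from a deposited table of sorted tumour CD8+ T cells and a deposited table of libraries labelled bulk tumour. Of the 4 genes, 3 had a row among the 28023 symbols of each table, and Trdc was not analysed here. C57BL/6 mice labelled WT received a faecal microbiota transplant (FMT) of human volunteer stool that had been exposed for 6 days to CZA with DAV132, a colon-targeted adsorbent, or to CZA alone. The labels give CZA only as this abbreviation. At 2 weeks they were given subcutaneous MCA-205, a fibrosarcoma line of that strain. Once tumours measured 25 to 35 mm2, anti-PD-1 (250 µg per mouse), which binds an inhibitory receptor on T cells, or isotype control antibody, its dose not given in the labels, was injected 4 times into the peritoneum, every 3 days. Tumour tissue was taken 2 days after the course ended.

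The groups were CZA+DAV132 with anti-PD-1, CZA+DAV132 with isotype, CZA with anti-PD-1 and CZA with isotype, so that all mice carried an FMT and a tumour and none was free of CZA-exposed stool. There were 5 libraries per group, but 4 for CZA+DAV132 with isotype among the libraries labelled bulk tumour. The labels place the CD8+ T cells in a repeat of the tumour experiment with the same FMT material. Whether each library is a separate mouse is not stated, so the p-values cover the spread among libraries, which may be technical. The arms differ in the stool given, and in the libraries labelled bulk tumour they also differ in library names (T021 to T030 for CZA+DAV132 and T982 to T991 for CZA), so the effect of DAV132 and those differences cannot be told apart. Values are TPM, which correct for transcript length and are scaled to a fixed total. That unit carries no sequencing depth, and the depth is unknown.

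A gamma-delta T cell receptor pairs a gamma chain with a delta chain, each made by joining variable and joining segments, and for delta also diversity segments, to a constant region. The mouse gamma locus holds several clusters that each have their own constant gene, and cells of different origin use different clusters. Gamma constant transcripts are not restricted to gamma-delta T cells, because alpha-beta T cells, cytotoxic ones among them, can transcribe or rearrange the gamma locus without displaying the chain. Most T cells in a CD8+ sort carry the alpha-beta receptor, whose constant regions come from Trac, Trbc1 and Trbc2.

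In build GRCm38, with the GENCODE M21 annotation, the constant genes lie on chromosome 13. Tcrg-C1 (ENSMUSG00000076749) spans 19214103 to 19217024 on the plus strand and is preceded by the variable segments Tcrg-V7, Tcrg-V4, Tcrg-V6 and Tcrg-V5. Tcrg-C2 (ENSMUSG00000076752) spans 19304649 to 19307551 on the minus strand. Tcrg-C4 (ENSMUSG00000076757) spans 19344558 to 19352756 on the plus strand, with Tcrg-V1 ending 4104 bases before it. Tcrg-C3 (ENSMUSG00000091682), the constant gene of the cluster that holds Tcrg-V3, spans 19260884 to 19263528 on the plus strand. Trdc (ENSMUSG00000104876) is annotated on chromosome 14 at 54142851 to 54148868, within the alpha-delta locus and ahead of Trac. Each gamma constant gene has several exons, and the stretches below come from the first, which is coding.

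How similar these genes are decides how far their values can be separated, since the software that made the values shares reads among transcripts that match alike. The first stretch is bases 1 to 60 of the first exon in GENCODE M21 transcripts, with capitals where a base differs from Tcrg-C1. It lies at chr13:19214103-19214162 for Tcrg-C1, chr13:19307492-19307551 for Tcrg-C2 (minus strand), chr13:19260885-19260944 for Tcrg-C3 and chr13:19344558-19344617 for Tcrg-C4. The Tcrg-C3 transcript used starts 1 base inside the annotated gene.
Tcrg-C1: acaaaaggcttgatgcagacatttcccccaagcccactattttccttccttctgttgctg
Tcrg-C2: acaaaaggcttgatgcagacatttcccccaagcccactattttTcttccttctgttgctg
Tcrg-C3: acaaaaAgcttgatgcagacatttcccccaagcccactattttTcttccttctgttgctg
Tcrg-C4: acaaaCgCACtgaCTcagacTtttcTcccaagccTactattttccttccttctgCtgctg
Against Tcrg-C1, the stretch differed at 1 base in Tcrg-C2, 2 in Tcrg-C3 and 10 in Tcrg-C4. Bases 181 to 240 of the same exon hold more of the differences. They lie at chr13:19214283-19214342 for Tcrg-C1, chr13:19307312-19307371 for Tcrg-C2 (minus strand), chr13:19261065-19261124 for Tcrg-C3 and chr13:19344738-19344797 for Tcrg-C4.
Tcrg-C1: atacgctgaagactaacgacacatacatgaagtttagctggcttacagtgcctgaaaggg
Tcrg-C2: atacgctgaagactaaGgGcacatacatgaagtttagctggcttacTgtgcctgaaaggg
Tcrg-C3: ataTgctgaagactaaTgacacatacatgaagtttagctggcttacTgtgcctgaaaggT
Tcrg-C4: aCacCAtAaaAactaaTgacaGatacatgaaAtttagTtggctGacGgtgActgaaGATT
Here Tcrg-C2 differed from Tcrg-C1 at 3 bases, Tcrg-C3 at 4 and Tcrg-C4 at 16. Over the 330 bases of the first exon, identity to Tcrg-C1 was 97.3% for Tcrg-C2, 96.1% for Tcrg-C3 and 82.1% for Tcrg-C4. Of the 31-base windows of each whole transcript, 48.4% of those in Tcrg-C1, 45.9% in Tcrg-C2 and 56.6% in Tcrg-C3 also occurred in another gamma constant transcript, and 0% in Tcrg-C4. The split of reads among Tcrg-C1, Tcrg-C2 and Tcrg-C3 is therefore uncertain, whereas no 31-base window was shared with Tcrg-C4.

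The label of the sorted cells was checked against markers. In the 20 CD8+ libraries Trac, Trbc1 and Trbc2 summed to between 1378 and 9282 TPM. Of the CD4+ T cell markers, Cd4 reached 2.32 TPM, Foxp3 3.23 TPM and Cd40lg 6.28 TPM. Markers listed for other cells were present too. Those of natural killer (NK) cells summed to 207.9 to 2184 TPM and those of macrophages to 40.06 to 1467 TPM. Among the NK genes, Fcer1g (median 543.6 TPM), Klre1 (158.4 TPM) and Tyrobp (100.8 TPM) were the highest. Ncr1 (0.457 TPM) and Klra8 (0.488 TPM) of the same list were near 0, so the sum alone does not show that NK cells were present. Of 19 other genes tied to the gamma-delta lineage or its IL-17-producing subset, some were near 0 and others were not. Sox13, a regulator of gamma-delta lineage cells, was listed at 0 in 16 of the 20 libraries and reached 0.0489 TPM. Blk, a kinase of IL-17-producing gamma-delta cells, was listed at 0 in 9 libraries, and Cd163l1, a scavenger receptor of such cells, had a median of 1.77 TPM. Tcf12 (median 14.3 TPM), Id3 (13.3 TPM), Sox4 (7.71 TPM), Tmem176b (11.95 TPM) and Tmem176a (7.85 TPM), which other cells also express, were higher. Among the marker lists, T cell genes also led in the 19 libraries labelled bulk tumour. There the alpha-beta constant genes summed to between 1456 and 8355 TPM and fibroblast and sarcoma genes to between 6.605 and 1343 TPM. These libraries are therefore called by their label only. In such samples fewer cells of a type and less RNA per cell cannot be told apart.

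Entries made of satellite or simple repeats, 20 in all, took up part of the TPM, and their share differed between groups of CD8+ libraries. It averaged 29.4% ± 24.6 (SD, n = 5) with anti-PD-1 and 4.39% ± 2.69 (n = 5) with isotype in CZA+DAV132 (exact two-sided permutation p = 0.00794, the smallest that 5 against 5 libraries allow). In the CZA arm it averaged 9.47% ± 4.88 (n = 5) with anti-PD-1 and 9.88% ± 10.1 (n = 5) with isotype (exact permutation p = 0.96). Library 19 held 71.9% and library 16 held 29.3%, both from CZA+DAV132 with anti-PD-1. Library 1 of CZA with isotype followed at 25.75%, above library 17 of CZA+DAV132 with anti-PD-1 at 18.6%. The alpha-beta constant genes summed to 4221 ± 2432 TPM (n = 5) in that group, 6738 ± 692 in CZA+DAV132 isotype, 7441 ± 1621 in CZA anti-PD-1 and 6424 ± 2057 in CZA isotype libraries. The comparisons of anti-PD-1 with isotype are therefore also given without libraries 16 and 19 and relative to the alpha-beta genes, and those of the CZA arm without library 1.

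In the CD8+ libraries of the CZA+DAV132 arm, all 3 gamma constant genes were lower after anti-PD-1 than after isotype. The ratio of the group means was 0.163 for Tcrg-C4, 0.262 for Tcrg-C1 and 0.398 for Tcrg-C2. Each passed the test, as did 23.5% of the 12942 genes tested in this comparison in either direction and 19.4% as lower. These were 533 genes called higher and 2509 lower, and the split was 1471 and 1828 with median-ratio scaling, 1453 and 1138 without the repeat entries, and 1686 and 67 relative to the alpha-beta genes. The median gene changed by -0.34 on the log2(TPM + 1) scale, and the members by -1.49 to -2.77.

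**Figure D1:**
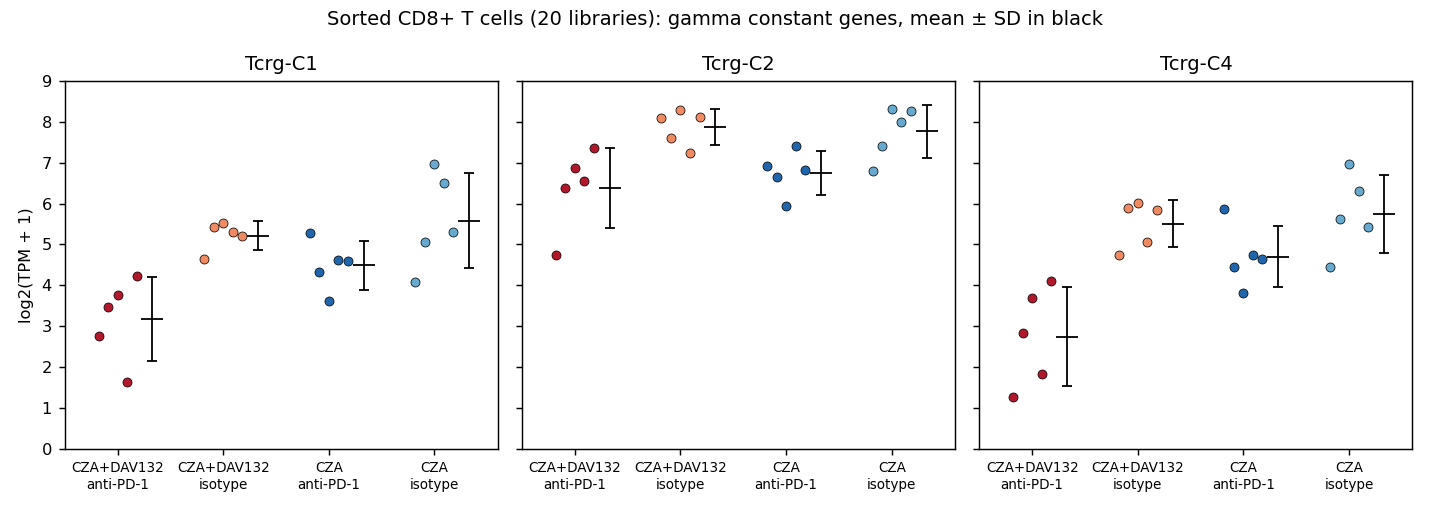
Levels of Tcrg-C1, Tcrg-C2 and Tcrg-C4 in the 20 libraries of sorted CD8+ T cells, as log2(TPM + 1), by group on the horizontal axis. Each point is a library and the black bars give the mean and SD of 5; for Tcrg-C1 and Tcrg-C4 all CZA+DAV132 anti-PD-1 points lie under all CZA+DAV132 isotype points.

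Tcrg-C4, the constant gene of the cluster that holds Tcrg-V1, had 1.39, 6.13, 12.0, 2.53 and 16.4 TPM in CZA+DAV132 anti-PD-1 libraries 16 to 20, against 25.8, 58.5, 63.3, 32.4 and 56.4 TPM in the CZA+DAV132 isotype libraries 11 to 15. The groups did not overlap, and libraries 16 and 19 were the lowest. The share of all genes without overlap was not counted in any comparison. A lack of overlap, here or below, therefore cannot be called particular to the members. The means were 7.68 ± 6.37 and 47.3 ± 16.9 TPM (SD, n = 5 each), a log2 change of -2.77 (SE 0.51, limma adjusted p = 0.00582), which ranked 42 of 12942 by p. As a percentage of the summed alpha-beta constant genes it was 0.160 ± 0.0616 with anti-PD-1 and 0.7098 ± 0.271 with isotype, again without overlap.

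Tcrg-C1, the constant gene behind the variable segments used by many skin and IL-17-producing gamma-delta cells, had 5.76, 10.2, 12.7, 2.10 and 17.8 TPM in CZA+DAV132 anti-PD-1 libraries, against 23.8, 42.3, 44.8, 38.5 and 35.8 TPM in the isotype libraries. These groups did not overlap either, and neither did those of Trac (114.2 to 1436 against 1445 to 2008 TPM). The log2 change of Tcrg-C1 was -2.04 (SE 0.48, limma adjusted p = 0.00878). Relative to the alpha-beta genes it was 0.241% ± 0.114 with anti-PD-1 and 0.561% ± 0.161 with isotype, and the groups overlapped by library 16, which was highest of its group on this scale.

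Tcrg-C2, the inverted cluster's constant gene and the most abundant of the 3, had 25.9, 82.35, 116.0, 92.8 and 163.2 TPM in CZA+DAV132 anti-PD-1 libraries, against 273.6, 193.4, 311.6, 151.1 and 277.4 TPM in the isotype libraries. Of the 5 anti-PD-1 libraries, 4 lay under the lowest isotype library and library 20 did not. The log2 change was -1.49 (SE 0.40, limma adjusted p = 0.014). Relative to the alpha-beta genes Tcrg-C2 was 2.57% ± 1.40 with anti-PD-1 and 3.58% ± 0.992 with isotype, with library 19 at 5.01%, and the change of -0.56 on that scale did not pass (limma adjusted p = 0.127).

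Without libraries 16 and 19 the log2 changes in the CZA+DAV132 arm were -1.96 for Tcrg-C4 (limma adjusted p = 0.0291), -1.39 for Tcrg-C1 (adjusted p = 0.0753) and -1.002 for Tcrg-C2 (adjusted p = 0.0794), so that only Tcrg-C4 passed. Relative to the alpha-beta genes with all libraries, Tcrg-C4 and Tcrg-C1 still passed. Scaled by median ratios or with the repeat entries removed, Tcrg-C2 no longer passed, at -1.01 (adjusted p = 0.0564) and -0.93 (adjusted p = 0.111), and the other members still did.

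**Figure D2:**
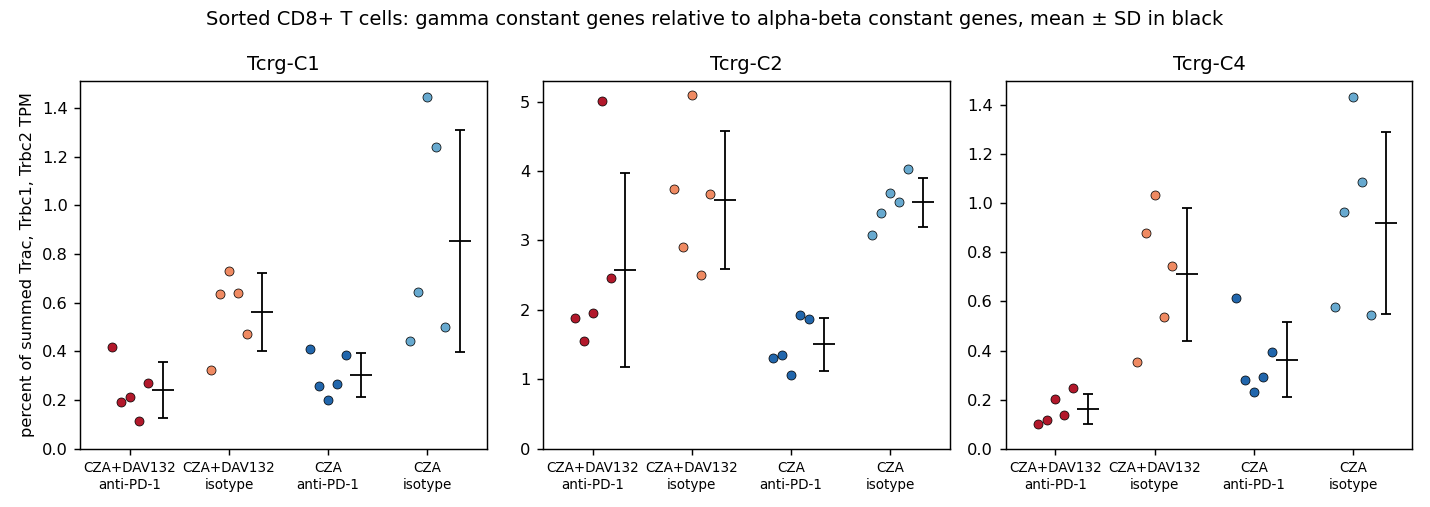
The same 3 genes in the CD8+ libraries as a percentage of the summed TPM of Trac, Trbc1 and Trbc2, by group on the horizontal axis, with a vertical scale for each gene. Points are libraries and bars the mean and SD of 5; Tcrg-C4 in the CZA+DAV132 arm and Tcrg-C1 and Tcrg-C2 in the CZA arm show anti-PD-1 groups wholly under their isotype groups.

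In the CZA arm of the CD8+ libraries the members had lower group means with anti-PD-1 too, but none passed the test, where 0.0155% of genes were called. Tcrg-C4 had 57.0, 20.8, 13.0, 25.9 and 23.8 TPM in CZA anti-PD-1 libraries 6 to 10, against 20.8, 48.3, 123.5, 78.2 and 41.8 TPM in CZA isotype libraries 1 to 5. Library 6 was above the others of its group, and the groups overlapped. Tcrg-C1 had 38.0, 19.1, 11.3, 23.5 and 23.3 TPM with anti-PD-1, against 16.0, 32.3, 124.5, 89.4 and 38.2 TPM with isotype. Tcrg-C2 had 120.9, 99.9, 59.96, 170.3 and 113.0 TPM with anti-PD-1, against 111.1, 170.4, 317.6, 256.2 and 308.9 TPM with isotype. For each member all 5 anti-PD-1 libraries lay under the isotype mean, and library 1 was the lowest isotype library. The log2 changes were -1.05 for Tcrg-C4 (SE 0.51, limma adjusted p = 0.984), -1.09 for Tcrg-C1 (SE 0.48, adjusted p = 0.904) and -1.01 for Tcrg-C2 (SE 0.40, adjusted p = 0.836). Without library 1 they were -1.38, -1.465 and -1.25 (adjusted p = 0.468, 0.289 and 0.325), and none passed.

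Set against the alpha-beta constant genes, the CZA groups were further apart. Tcrg-C2 was 1.06% to 1.93% of the alpha-beta sum with anti-PD-1 and 3.08% to 4.03% with isotype, and Tcrg-C1 was 0.199% to 0.410% and 0.443% to 1.44%. Neither overlapped. Tcrg-C4 was 0.230% to 0.614% with anti-PD-1 and 0.545% to 1.43% with isotype, where 4 of 5 anti-PD-1 libraries were under the lowest isotype library. Library 6 was the exception. In the all-gene fit on this scale none of the 3 passed with all libraries, and all 3 did when libraries 16 and 19, which belong to the other arm but enter the shared spread, were left out. The log2 changes there were -1.34 for Tcrg-C1 (limma adjusted p = 0.0348), -1.27 for Tcrg-C2 (adjusted p = 0.0109) and -1.31 for Tcrg-C4 (adjusted p = 0.0416). That fit called 3 genes higher and 286 lower, with the median gene at -0.27, whereas 3 genes in all were called with all libraries.

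The difference between the arms was tested itself, as the anti-PD-1 change in CZA+DAV132 minus that in CZA. It was -0.95 for Tcrg-C1 (SE 0.68, limma adjusted p = 0.463), -0.48 for Tcrg-C2 (SE 0.57, adjusted p = 0.648) and -1.71 for Tcrg-C4 (SE 0.72, adjusted p = 0.294). The 95% intervals were -2.36 to 0.46, -1.65 to 0.70 and -3.20 to -0.22. No gene was called in this limma comparison (0% of 12942, with 2036 at an unadjusted p under 0.05), so these data do not show that the arms differed in the members' response. Relative to the alpha-beta genes the values were 0.24 for Tcrg-C1 and 0.71 for Tcrg-C2, the opposite direction, and -0.52 for Tcrg-C4, the same direction, with the median gene at 0.82.

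Averaged over both arms, a contrast added after the members' values were seen, anti-PD-1 was accompanied by lower levels of all 3 genes. The log2 changes were -1.91 for Tcrg-C4 (SE 0.36, limma adjusted p = 0.00704), -1.57 for Tcrg-C1 (SE 0.34, adjusted p = 0.0124) and -1.25 for Tcrg-C2 (SE 0.28, adjusted p = 0.0141), where 12.9% of genes were called. All 3 also passed relative to the alpha-beta genes, at -1.57 (adjusted p = 0.00165), -1.23 (adjusted p = 0.0196) and -0.91 (adjusted p = 0.0249), when 58 genes in all were called. They passed without libraries 16 and 19 as well, at -1.51, -1.24 and -1.01 (adjusted p = 0.0112, 0.0213 and 0.0146). On the same average the alpha-beta constant genes were called in no case, with log2 changes of -0.67 for Trac, -0.36 for Trbc1 and -0.25 for Trbc2 (limma adjusted p = 0.229, 0.444 and 0.552), and 3765 genes were at an unadjusted p under 0.05.

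**Figure D3:**
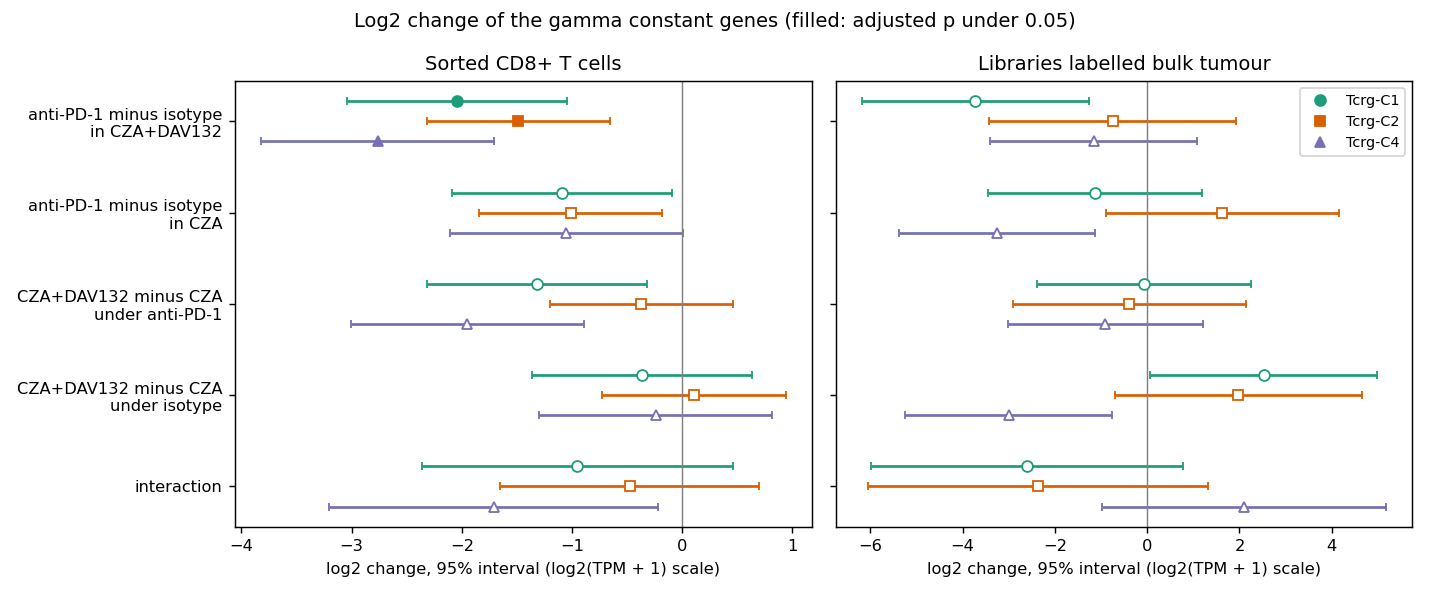
Log2 change of each gene with its 95% interval on the log2(TPM + 1) scale, in the 5 comparisons (rows), for the CD8+ libraries and the libraries labelled bulk tumour, each with its own horizontal scale. Interaction is the anti-PD-1 change in CZA+DAV132 minus that in CZA; the 3 filled symbols, the calls at an adjusted p under 0.05, are all in the first row of the CD8+ libraries.

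Between the arms under anti-PD-1, CD8+ libraries of the CZA+DAV132 group had lower means of the members than those of the CZA group, and none of the 3 passed. The log2 difference was -1.95 for Tcrg-C4 (SE 0.51, limma adjusted p = 0.0683), -1.32 for Tcrg-C1 (SE 0.48, adjusted p = 0.0809) and -0.37 for Tcrg-C2 (SE 0.40, adjusted p = 0.508), where 0.0386% of genes were called and the median gene stood at -0.40. On the scale relative to the alpha-beta genes the differences were -0.90 for Tcrg-C4, -0.26 for Tcrg-C1 and 0.69 for Tcrg-C2 (adjusted p = 0.0851, 0.514 and 0.0909), with the median gene at 0.65. As a share of the alpha-beta sum Tcrg-C2 averaged 2.57% ± 1.40 in CZA+DAV132 and 1.503% ± 0.380 in CZA, and its direction also turned under median-ratio scaling, without the repeat entries and without libraries 16 and 19. For Tcrg-C4, 4 of 5 CZA+DAV132 libraries lay under the lowest CZA library. Library 20 was the exception. These calls hung on single libraries, because Tcrg-C4 passed without library 8, 18 or 20 (adjusted p = 0.0328, 0.0372 and 0.0194) and Tcrg-C1 without library 20 (adjusted p = 0.0262). The number called among all genes also rose far in those fits, as counted in the closing section. Such calls are therefore not particular to the members. The repeat share also differed between these groups, at 29.4% ± 24.6 in CZA+DAV132 and 9.47% ± 4.88 in CZA (exact permutation p = 0.0238, n = 5 each), and its part in the result was not tested.

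Under isotype no member passed between the arms. The log2 differences, CZA+DAV132 minus CZA, were -0.36 for Tcrg-C1 (95% interval -1.36 to 0.63), 0.11 for Tcrg-C2 (-0.72 to 0.94) and -0.24 for Tcrg-C4 (-1.30 to 0.82), all with a limma adjusted p of 1. No gene was called in this limma comparison (0%, with 320 at an unadjusted p under 0.05). Ordered by mean, Tcrg-C1 and Tcrg-C4 ran from CZA isotype (60.1 ± 45.3 and 62.5 ± 39.8 TPM) through CZA+DAV132 isotype (37.0 ± 8.15 and 47.3 ± 16.9 TPM) and CZA anti-PD-1 (23.1 ± 9.73 and 28.1 ± 16.9 TPM) to CZA+DAV132 anti-PD-1 (9.71 ± 6.10 and 7.68 ± 6.37 TPM). Tcrg-C2 had the isotype groups the other way round, at 241 ± 66.6 TPM in CZA+DAV132 and 233 ± 89.8 TPM in CZA, above 113 ± 39.8 TPM in CZA anti-PD-1 and 96.1 ± 50.1 TPM in CZA+DAV132 anti-PD-1. Every pair of neighbours in these orders overlapped.

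The other entries of the gamma locus were low, and part of them fell in the CZA+DAV132 arm. Of the 7 other gamma entries, 4 fell with anti-PD-1, where 19.4% of all genes did, and none rose. Tcrg-V1, the variable segment of the Tcrg-C4 cluster, averaged 3.70 ± 2.76 TPM with anti-PD-1 and 13.3 ± 6.83 TPM with isotype (log2 change -1.62, SE 0.52, limma adjusted p = 0.0292). Tcrg-V4, a variable segment of the Tcrg-C1 cluster, averaged 1.496 ± 2.26 and 6.80 ± 3.19 TPM (log2 change -1.94, adjusted p = 0.0305). Tcrg-V3 averaged 1.12 ± 1.40 and 5.77 ± 3.75 TPM, and Tcrg-C3, in the same cluster, 0.856 ± 0.812 and 5.64 ± 2.49 TPM (log2 changes -1.69 and -1.88, adjusted p = 0.0339 and 0.0172). None of the 7 passed relative to the alpha-beta genes, without the repeat entries or without libraries 16 and 19. Tcrg-C3 passed in each of the 10 fits that left out a library. The calls of Tcrg-V1, Tcrg-V3 and Tcrg-V4 were lost in 6 or 7 of them, with a highest limma adjusted p of 0.091. Because 56.6% of the 31-base windows of Tcrg-C3 occur in another gamma constant transcript, its fall cannot be separated from that of Tcrg-C1 and Tcrg-C2.

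The delta locus stood in for Trdc only in part. Of its 9 other entries, the diversity segments Trdd1 and Trdd2 were listed at 0 in all 20 CD8+ libraries and 7 passed the filter on low values. Trdv1, a delta variable segment, fell in the CZA+DAV132 arm to 1.40 ± 1.77 TPM with anti-PD-1, against 4.27 ± 1.64 TPM with isotype (log2 change -1.38, SE 0.46, limma adjusted p = 0.0351), and the other 6 did not pass. That call was lost in 7 of 10 fits without a library (adjusted p up to 0.113). Trdj1, the most abundant entry, is a joining segment too short for its TPM to be set beside those of constant genes. It averaged 8.35 ± 18.7 TPM with anti-PD-1 and 22.3 ± 22.7 TPM with isotype in CZA+DAV132. In CZA the values were 8.25 ± 11.8 and 54.0 ± 50.7 TPM, and Trdj1 was above 0 in 12 of the 20 libraries. Trdv2-2 averaged 2.07 and 2.62 TPM in CZA+DAV132 and 7.80 and 10.1 TPM in CZA, in the same order of antibodies. Of the 9 segments shared between the alpha and delta loci, none passed in the CZA+DAV132 arm. No segment passed in the CZA arm.

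Averaged over the arms, 1394 of 12942 genes were called lower. Of the 7 gamma entries 5 fell, namely Tcrg-V1, Tcrg-V3, Tcrg-V4, Tcrg-V5 and Tcrg-V6, with log2 changes between -1.03 and -1.82. Tcrg-V5 was above 0 in 9 of the 20 libraries. It averaged 0 TPM in CZA+DAV132 anti-PD-1 and 0.199 ± 0.444 TPM in CZA anti-PD-1 libraries. It passed the filter only through isotype libraries, so its fall cannot be counted as support. Of the delta entries, Trdj1 (-2.96, limma adjusted p = 0.029), Trdv1 (-1.24, adjusted p = 0.023) and Trdv5 (-1.33, adjusted p = 0.017) fell. Trdv5 averaged 0.671 ± 1.5 TPM in CZA+DAV132 anti-PD-1 and 0.751 ± 1.13 TPM in CZA anti-PD-1 libraries. It passed the filter only with the isotype libraries counted, so its fall cannot be counted as support either. Trdv5 overlaps the end of Trdc on the other strand, and whether strand was used when reads were assigned is not given in the sources used here, so its reads cannot be separated from those of Trdc. Of the shared alpha-delta segments, Trav13-4-dv7 and Trav21-dv12 fell (-1.77 and -1.23). None of these segments passed relative to the alpha-beta genes, and without libraries 16 and 19, 2 gamma, 1 delta and 1 shared segment did.

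The alpha-beta receptor genes of the same libraries were measured beside them. In the CZA+DAV132 arm Trbc1 fell to 731 ± 411 TPM with anti-PD-1, against 1356 ± 231 TPM with isotype (log2 change -1.12, SE 0.41, limma adjusted p = 0.0489). Trac averaged 894 ± 537 and 1713 ± 211 TPM (-1.35, adjusted p = 0.0612) and Trbc2 2596 ± 1522 and 3669 ± 544 TPM (-0.75, adjusted p = 0.126), in the same order. The CD3 subunit gene Cd3e averaged 517 ± 271 and 785 ± 99.1 TPM (-0.81, adjusted p = 0.0923) and the co-receptor gene Cd8a 197 ± 101 and 263 ± 50.3 TPM (-0.58, adjusted p = 0.183). The call of Trbc1 was lost under every other scaling and setting tried, and without any of 7 single libraries. In the CZA arm the alpha-beta genes showed no call, and their log2 changes were 0.01 for Trac, 0.41 for Trbc1 and 0.26 for Trbc2 (limma adjusted p = 0.999, 0.997 and 0.997).

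In the CZA+DAV132 arm, where 23.5% of all genes were called, 2 of the 18 tested genes of the lineage, IL-17 and IL-7 lists were. Among 10 regulators of the lineage, 5 were measured above the filter and none passed, with a median log2 change of 0.32, while that of all genes was -0.34. Of 9 genes of the IL-17-producing subset 4 were tested, and Tmem176b, a membrane channel gene, fell to 7.25 ± 8.69 TPM with anti-PD-1, against 15.8 ± 6.61 TPM with isotype (log2 change -1.47, limma adjusted p = 0.0438). That call was lost in 7 of 10 fits without a library. Il17a itself was listed at 0 in 10 of the 20 libraries. Of 9 genes of the IL-7 and STAT5 axis, which opens the gamma locus to recombination, Il2rg, the shared cytokine receptor chain, fell to 233 ± 135 TPM, against 491 ± 48.0 TPM (log2 change -1.31, adjusted p = 0.0146). Averaged over arms, Id3, a regulator that follows strong receptor signals (-1.21, adjusted p = 0.0277), Tmem176a (-1.22, adjusted p = 0.0245), Tmem176b (-1.45, adjusted p = 0.0199) and Il2rg (-0.84, adjusted p = 0.0337) fell. None of these passed relative to the alpha-beta genes.

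Genes of the NK and macrophage lists moved with the members. In the CZA+DAV132 arm 19.4% of all genes were called lower. NK marker genes summed to 208 to 703 TPM in CZA+DAV132 anti-PD-1 libraries and 872 to 2184 TPM in the CZA+DAV132 isotype libraries, and to 488 to 1091 TPM and 715 to 1878 TPM in the CZA arm. Of the 7 NK genes, 5 were tested and 4 fell in the CZA+DAV132 arm, among them Klrb1c (5.49 ± 2.50 and 20.0 ± 12.6 TPM, log2 change -1.64, limma adjusted p = 0.00855) and Tyrobp (61.1 ± 27.02 and 192 ± 85.9 TPM, -1.68, adjusted p = 0.00899). Macrophage genes summed to 40.06 to 209 TPM with anti-PD-1 and 57.97 to 552 TPM with isotype in CZA+DAV132, and to 63.25 to 394 TPM and 225 to 1467 TPM in CZA. Of 8 macrophage genes, 3 fell in the CZA+DAV132 arm and 8 on the average over arms, where 1394 of 12942 genes were called lower. Dendritic cell genes summed to 3.03 to 6.88 TPM with anti-PD-1 and 8.63 to 29.3 TPM with isotype in CZA+DAV132, and 2 of 5 tested fell. The median log2 change was -2.04 for the members, -1.33 for each of the NK and macrophage lists and -1.12 for the alpha-beta genes. It was -0.275 for the dendritic list and -0.34 for all genes. No gene was called in the CZA+DAV132 arm among 3 tested for CD4+ T cells and 5 for fibroblasts and sarcoma. The same held for 2 neutrophil genes and 1 B cell gene, while the 1 tested keratinocyte gene fell. The part of these cells in the members' result was not tested.

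The members varied together across the CD8+ libraries. Tcrg-C1 and Tcrg-C4, which share no 31-base window, correlated at Pearson r = 0.951 (permutation p = 1e-05, the smallest that 100000 resamples give, adjusted over 3 pairs to 3e-05) and Spearman rho = 0.967 (p = 1e-05, adjusted 1.5e-05) over n = 20. Without the 2 libraries farthest from the median of Tcrg-C1 r was 0.945. Tcrg-C2 and Tcrg-C4 gave r = 0.829 (permutation p = 4e-05, adjusted 6e-05) and rho = 0.841 (p = 2e-05, adjusted 2e-05), with r = 0.750 without 2 libraries. Tcrg-C1 and Tcrg-C2, which share sequence, gave r = 0.757 (permutation p = 0.00017, adjusted 0.00017) and rho = 0.854 (p = 1e-05, adjusted 1.5e-05), with r = 0.820 without 2 libraries. As deviations from the group means r was 0.885, 0.740 and 0.546 for these pairs. Relative to the alpha-beta genes, a scale added after the data were seen on which the pairs share a denominator, it was 0.876, 0.508 and 0.454.

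**Figure D4:**
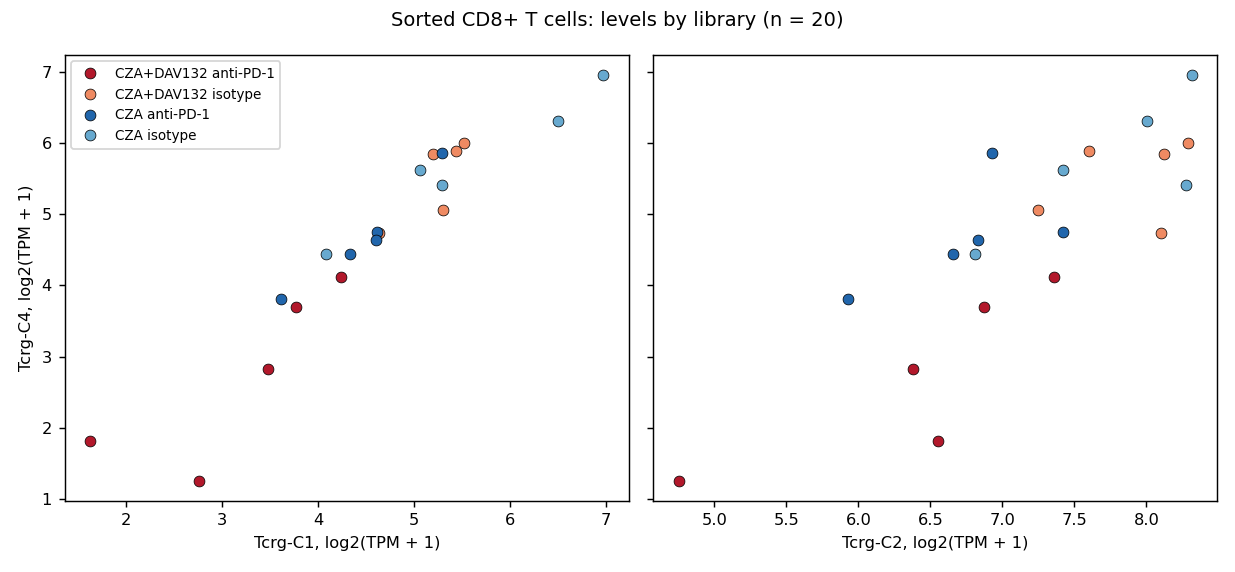
Levels of Tcrg-C4 against Tcrg-C1 (left) and Tcrg-C2 (right) in the 20 CD8+ libraries, as log2(TPM + 1) on both axes, coloured by group. The points of the left panel lie close to a line (r = 0.951), those of the right panel less so (r = 0.829), and the CZA+DAV132 anti-PD-1 libraries hold the low end.

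The genes most like each member across the CD8+ libraries were sought among 6833 genes of at least 5 TPM on average, leaving out receptor segments. Cd7, a surface glycoprotein of T and NK cells, was closest to Tcrg-C4 at r = 0.975 and was also among the first 5 for Tcrg-C1 (r = 0.940). After it came Washc3, Rabac1, Limd2 and Abhd14a for Tcrg-C4, from 0.951 to 0.948. For Tcrg-C1 the list opened with Klhdc2 (0.954) and Psmg1 (0.946) and held Klra7 (0.946), a Ly49 receptor gene of NK and some CD8+ T cells, and Tmem11 (0.941). For Tcrg-C2 it was Ndufb2 (0.895), Psmf1 (0.887), Klra3 (0.887), another Ly49 receptor gene, Mrpl48 (0.883) and Ndufs7 (0.881). These are descriptions over 20 libraries that share their scaling, chosen as the highest of many.

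In the libraries labelled bulk tumour the members scattered far more, and no gene of the 3 passed in any comparison. Repeat entries took up 51.2% of the TPM in T026 and 14.05% in T985, and less in the others. Tcrg-C1 was listed at 0 in library T021 and had 4.72, 2.42, 14.5 and 6.49 TPM in T023, T026, T029 and T030 of CZA+DAV132 with anti-PD-1, against 30.8, 30.6, 164.5 and 87.0 TPM in the CZA+DAV132 isotype libraries T022, T024, T027 and T028. The groups did not overlap, on this scale or relative to the alpha-beta genes, though the share of all genes without overlap was not counted. The log2 change was -3.72 (SE 1.18, limma adjusted p = 0.18), where 0.24% of 13326 genes were called. Tcrg-C2 had 56.6, 28.4, 97.2, 86.2 and 93.0 TPM with anti-PD-1 and 180.0, 64.1, 212.5 and 62.2 TPM with isotype (log2 change -0.74, adjusted p = 0.919). Tcrg-C4 had 3.40, 0.839, 4.13 and 6.96 TPM with anti-PD-1 and was listed at 0 in T030, against 9.55, 8.49 and 24.7 TPM with isotype and a listing at 0 in T022 (log2 change -1.16, adjusted p = 0.82).

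**Figure D5:**
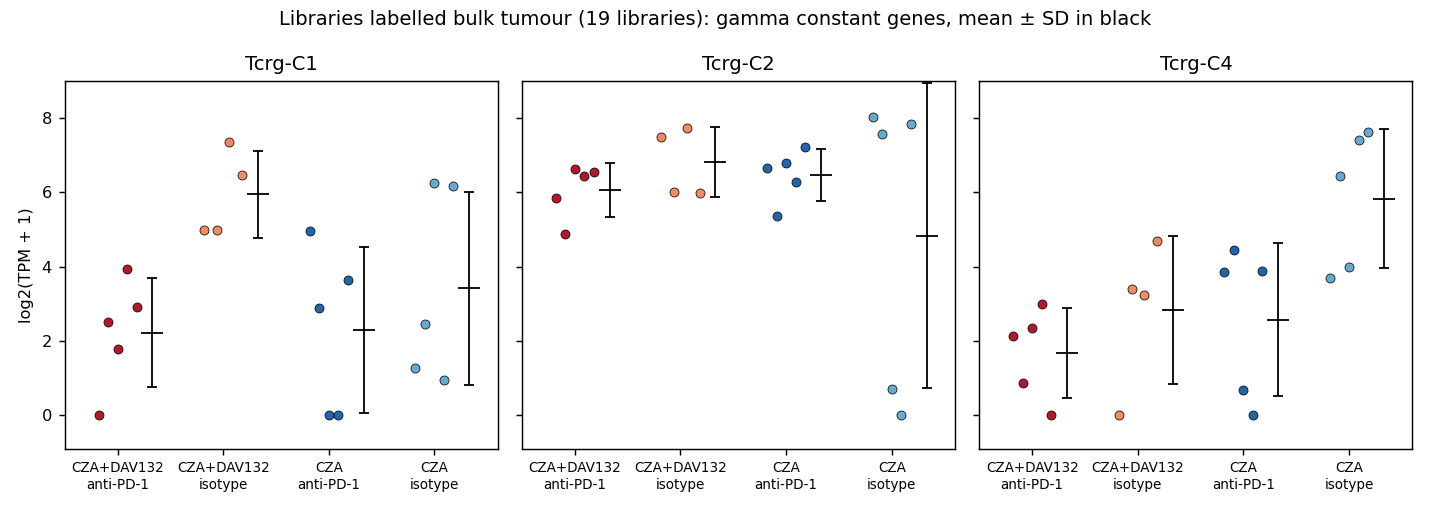
Levels of the 3 genes in the 19 libraries labelled bulk tumour, as log2(TPM + 1), by group on the horizontal axis; points are libraries and bars the mean and SD of 4 or 5. Tcrg-C1 separates the CZA+DAV132 groups, while Tcrg-C2 in the CZA isotype group has a library listed at 0 and another at 0.621 TPM.

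In the CZA arm of the libraries labelled bulk tumour, Tcrg-C4 had 13.5, 20.7, 0.618 and 13.9 TPM in anti-PD-1 libraries T982, T984, T988 and T990 and was listed at 0 in T989, against 12.1, 85.9, 14.9, 169.1 and 195.5 TPM in isotype libraries T983, T985, T986, T987 and T991. The groups overlapped, and the log2 change was -3.26 (SE 1.02, limma adjusted p = 0.163), where 0.285% of genes were called. Tcrg-C1 had 30.04, 6.36 and 11.5 TPM in T982, T984 and T990 with anti-PD-1 and was listed at 0 in T988 and T989, against 1.43, 4.46, 74.7, 0.942 and 71.2 TPM with isotype (log2 change -1.13, adjusted p = 0.707). Tcrg-C2 had 99.8, 40.0, 109.9, 76.6 and 148.2 TPM with anti-PD-1, against 262.9, 189.8, 0.621 and 229.7 TPM with isotype in all but T987, which was listed at 0 (log2 change 1.63, adjusted p = 0.603). The means ran the other way, at 94.9 ± 40.2 TPM with anti-PD-1 and 137 ± 127 TPM with isotype, and the log2 change was 0.59 without T986 and 0.42 without T987. Within the isotype group the members did not follow each other, since T986 was high in Tcrg-C1 and near 0 in Tcrg-C2, and T987 was high in Tcrg-C4 alone.

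Under anti-PD-1 the arms of these libraries differed by -0.07 for Tcrg-C1, -0.39 for Tcrg-C2 and -0.91 for Tcrg-C4 on the log2 scale, CZA+DAV132 minus CZA (limma adjusted p = 0.998, 0.979 and 0.925). The direction for Tcrg-C1 turned under 6 of the 8 other settings and in 5 of the 10 fits without a library. No gene was called there (0%, with 1010 at an unadjusted p under 0.05). Under isotype the differences were 2.53 for Tcrg-C1, 1.98 for Tcrg-C2 and -3.001 for Tcrg-C4 (limma adjusted p = 0.446, 0.615 and 0.293), where 0.113% of genes were called. For Tcrg-C2 the means ran the other way, at 129.7 ± 78.0 TPM in CZA+DAV132 and 137 ± 127 TPM in CZA, and the difference was 0.94 without T986 and 0.77 without T987. The interaction was -2.60, -2.37 and 2.10 in the same order (adjusted p = 0.59, 0.651 and 0.634), with 0.045% called. Averaged over arms the changes with anti-PD-1 were -2.42 for Tcrg-C1, 0.44 for Tcrg-C2 and -2.21 for Tcrg-C4 (adjusted p = 0.163, 0.9 and 0.163), with 1.07% called. Their 95% intervals were -4.11 to -0.73, -1.40 to 2.28 and -3.75 to -0.67. The average for Tcrg-C2 turned to -0.07 without T986 and -0.16 without T987.

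Correlations between members were not found in the libraries labelled bulk tumour (n = 19). Tcrg-C1 and Tcrg-C4 gave r = 0.291 (permutation p = 0.23, adjusted 0.49) and rho = 0.305 (p = 0.2, adjusted 0.6), and r = 0.288 without 2 libraries. Tcrg-C2 and Tcrg-C4 gave r = -0.241 (permutation p = 0.33, adjusted 0.49) and rho = -0.025 (p = 0.92, adjusted 0.92), and r = 0.322 without the 2 libraries at or near 0 for Tcrg-C2. Tcrg-C1 and Tcrg-C2 gave r = 0.073 (permutation p = 0.77, adjusted 0.77) and rho = 0.146 (p = 0.55, adjusted 0.83), and r = -0.013 without 2 libraries. The closest genes among 7893 were Fam173b for Tcrg-C1 (r = 0.801), Msl2 for Tcrg-C2 (0.887) and Zbtb11 for Tcrg-C4 (0.771), none of which was among the first 5 in the CD8+ libraries. Of the other locus entries, Tcrg-C3, Tcrg-V1, Trdj1 and Trdv2-2 passed the filter, beside 3 shared segments, and none was called in any comparison. Trdj1 was above 0 in 6 of the 19 libraries. It averaged 34.5 ± 41.1 TPM in CZA+DAV132 anti-PD-1 and 47.0 ± 52.2 TPM in CZA anti-PD-1 libraries, and 0 in both isotype groups. That direction is opposite to the one in the CD8+ libraries. Trdj1 passed the filter only through anti-PD-1 libraries, so its direction here cannot be counted as a result. Il17a and Il17f were listed at 0 in all 19 libraries, and Sox13 in 18. Of the fixed lists, Cd40lg, a marker of CD4+ T cells, was the gene called, higher in CZA anti-PD-1 (5.15 ± 3.51 TPM) than in CZA isotype libraries (0.105 ± 0.0986 TPM, log2 change 2.28, limma adjusted p = 0.0328), and its call was lost without T988, T989 or T990.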

How the data were processed

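RNA was measured in 20 sorted CD8+ T cell libraries and 19 libraries labelled bulk tumour. Per the labels' protocols, RNA was depleted of ribosomal RNA and made into directional libraries. The authors deposited 1 table of TPM per set. The submitters' processing notes name kallisto 0.45 and GRCm38; no source used here gives the annotation or strand setting. All value columns were used. Of 28023 symbols, 27787 matched GENCODE M21, the source of coordinates and sequences.

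Each table was analysed alone. Tests ran on log2(TPM + 1), which understates the changes of low genes. The filter asked for 1 TPM in 4 or more libraries, and all 3 members passed it. Genes were fitted with limma 3.58.1 in R 4.3.3, with 4 group means and trended empirical Bayes moderation. P-values were two-sided, adjusted over all genes by Benjamini-Hochberg and called under 0.05. There were 5 contrasts per set, and the average over arms was added after values were seen. Permutation tests used Python 3.11.15 with scipy 1.17.1.

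The fit was tested on simulated data. The members, the lists and the tests were chosen with earlier results of these data known. The text names the members in every contrast, Trac, Trbc1, Trbc2, Cd3e and Cd8a in the CD8+ set, every gene of the receptor, CD3, lineage, type 17 and IL-7 lists that was called, the other gamma and delta locus entries by counts and the 5 of highest mean, and the 5 genes of highest correlation with each member. Other segments, marker genes of other cells and single libraries were named after their values were seen. Sample groups came from the titles and treatment labels. Alternatives tried were a fit restricted to the groups compared, a pseudocount of 0.1, dropping the filter, median-ratio scaling, TPM rescaled without repeat entries, values relative to the alpha-beta constant genes, the libraries rich in repeats left out (16 and 19, or T026), and each library left out in turn.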

Additional observations from a re-analysis of the deposited data

How the results depend on the processing

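TPM give no depth, so counting error is unknown. Tcrg-C4 in the CD8+ CZA+DAV132 arm, and all 3 members on the average over arms, kept direction and call under every alternative. No paired analysis was possible because the replicate numbers are not shared between groups. Counts are of genes called, in the order CZA+DAV132 arm, CZA arm, arms under anti-PD-1, arms under isotype, interaction, average, where given; the causes of the shifts were not tested.

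In the CD8+ set the number called with anti-PD-1 in CZA+DAV132 was 3042 (533 higher, 2509 lower). The split was 1471 higher and 1828 lower with median-ratio scaling, 1453 and 1138 without repeat entries, 1686 and 67 (1753 in all) relative to the alpha-beta genes, and 427 and 854 (1281) with only the groups compared. It was 542 and 665 (1207) without libraries 16 and 19, and 18 and 119 (137) with both changes. The median gene shifted to -0.003, 0.064 and 0.595 under the first 3. In the CZA arm the number was 5 with median-ratio scaling, 6 without libraries 16 and 19, 289 with both changes and 0 without the filter. For the arms under anti-PD-1 it was 3 with median-ratio scaling, 2 relative to the alpha-beta genes, 2 without libraries 16 and 19, 1 with a pseudocount of 0.1, and 0 with both changes, only the groups compared or no filter. For the arms under isotype it was 2 or 3, and for the interaction 1, where they moved. The average gave 2975 with median-ratio scaling, 58 relative to the alpha-beta genes and 726 without the filter, and its split was 1262 higher and 1713 lower with median-ratio scaling, 1102 and 1186 without repeat entries, 921 and 1054 without libraries 16 and 19 and 16 and 42 relative to the alpha-beta genes, against 273 and 1394.

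In the CZA+DAV132 arm Tcrg-C2 lost its call at -1.01, -0.93, -0.56, -1.002 and -0.82 (median-ratio, without repeat entries, relative to the alpha-beta genes, without libraries 16 and 19, both), and Tcrg-C1 at -1.39 and -1.21 under the last 2. In the CZA arm the last setting gave calls at -1.34, -1.27 and -1.31 for Tcrg-C1, Tcrg-C2 and Tcrg-C4. Tcrg-C2 turned direction between the arms under anti-PD-1 (0.16, 0.10, 0.69, 0.12 and 0.42, in the same order), under isotype (-0.025 relative to the alpha-beta genes, with or without libraries 16 and 19) and in the interaction (0.079, 0.71, 0.01 and 0.44 without repeat entries and the settings after it). The interaction of Tcrg-C1 turned to 0.24 and 0.13 relative to the alpha-beta genes, with and without these libraries. Mrc1 turned to 0.056 relative to the alpha-beta genes.

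In the libraries labelled bulk tumour, with only the groups compared, the numbers were 6, 6, 1 and 0, without the filter 14, 9 and 1, with 3 for the interaction and 43 for the average. A pseudocount of 0.1 gave 97 for the CZA arm, 4 and 31. Median-ratio scaling gave 24 for the CZA arm, 2, 0 for the interaction and 293 for the average, and removing repeat entries 104 for the CZA+DAV132 arm, 1 for the arms under anti-PD-1, 1 for the interaction and 271 for the average. Relative to the alpha-beta genes they were 1, 0, 0 for isotype, 0 for the interaction and 3 for the average, with or without T026, and without T026 alone 2 under anti-PD-1 and 0 for the interaction. Tcrg-C1 between the arms under anti-PD-1 turned to 0.47 with a pseudocount of 0.1, 0.15 with median-ratio scaling, 0.10 without repeat entries, 0.44 and 0.46 relative to the alpha-beta genes with and without T026, and 0.047 without T026. Tcrg-C2 turned to 0.12 relative to the alpha-beta genes.

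With each library left out, the CD8+ numbers ranged from 1795 (without 16; 1798 without 15) to 4451, 0 to 1, 0 to 3993, 0 to 1, 0 to 1 and 556 (without 8) to 2801 (without 20). Between the arms under anti-PD-1 the number was 3993 without library 20, 2221 without 18, 1375 without 8, 26 without 17 and 10 without 7. Tcrg-C1, Tcrg-C2 and Tcrg-C4 ranged there from -1.58 to -0.93, -0.62 to 0.037 (turned without 16) and -2.30 to -1.58, and Tcrg-C1 and Tcrg-C4 were -0.66 and -1.15 without both 16 and 19. With anti-PD-1 in CZA+DAV132 Tcrg-C1 ranged from -2.31 to -1.66 and Tcrg-C2 from -1.73 to -1.08, and the interaction of Tcrg-C2 from -0.72 to -0.07. Under isotype Tcrg-C2 ranged from -0.13 to 0.26 (turned without 1) and Tcrg-C4 from -0.57 to 0.061 (turned without 3). In the libraries labelled bulk tumour the numbers ranged over 0 to 132, 5 to 119, 0 to 8, 5 to 73, 0 to 18 and 0 to 196. Tcrg-C1 ranged from -0.64 to 0.60 between the arms under anti-PD-1 (turned without T021, T026, T982, T984 or T990), and averaged Tcrg-C2 from -0.16 to 0.84 (turned without T986 or T987). Among refits of called list genes, 817 stayed called and 306 did not.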
